A study of Sus scrofa with 18 samples.

Results

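The genes described here are 10 genes whose loss of function causes primary microcephaly, a condition in which the brain is small at birth: ASPM, WDR62, CDK5RAP2, MCPH1, STIL, CENPJ, CEP135, CEP152, KNL1 and CIT. They were taken by gene name from the table of read counts per gene, which lists 31908 genes. Of the 10, 9 were named in the table and all 9 passed the filter on low counts, which left 16325 genes for testing. KNL1 is not named there.

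Most of these genes act at the centrosome, the organelle that organises microtubules and forms the poles of the mitotic spindle. In the fetal forebrain, radial glia divide at the ventricular surface, and the way the spindle is built and oriented bears on whether a division yields further progenitors or neurons. STIL, CENPJ, CEP135 and CEP152 take part in building new centrioles, CDK5RAP2 recruits the machinery that nucleates microtubules, and ASPM and WDR62 work at the spindle poles. KNL1 is a scaffold of the kinetochore, CIT encodes citron kinase, which acts in the last step of cell division, and MCPH1 acts in chromosome condensation and the DNA damage response.

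RNA was sequenced from whole brains of 18 pig fetuses, 3 females and 3 males at each of gestation days (GD) 45, 60 and 90. The dams were Landrace × Large White gilts inseminated with semen of the LR-M6 line, and no fetus was treated. Each day is represented by 3 litter sizes with 1 male and 1 female each, so fetuses of the same day and litter size were taken as littermates, which the labels do not state outright. Libraries held 15118843 to 19729783 counts (median 16413097). The library of male GD45 replicate 17 stood apart: its scaling factor (TMM, which corrects for differences in RNA composition) was 0.849, against 0.943 to 1.07 in the other 17. That fetus and its presumed littermate, female GD45 replicate 18, had labelled brain weights of 0.7135 and 0.6653, where the other GD45 fetuses had 1.55 to 1.86 in the same unit. Male GD90 replicate 1 stood apart in another way: 5 marker genes of cerebellar granule precursors summed to 200.2 CPM there and to 113 CPM in its presumed littermate, female GD90 replicate 2, against 47.8 to 59.3 CPM in the other 4 GD90 libraries. Neuronal marker genes summed to between 6122 and 10218 CPM (counts scaled to a common library size) in every library, and those of skeletal muscle to between 3.65 and 21.7. In whole brain, fewer cells of a type and less RNA per cell cannot be told apart, which holds for every change given here.

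The rows of the table do not all match the genes they name. The row named CEP152 (ENSSSCG00000004657, chr1:122725903-122979848, plus strand, Sscrofa11.1) runs across 2 neighbouring RefSeq genes on the same strand, SHC4, which encodes an adaptor of receptor tyrosine kinases, and CEP152 itself, which begins at base 122876146. The deposited table of counts per exon held 49.8% of the gene counts of this row. Of those exon counts, 72.9% lay in exons of RefSeq SHC4 and 27.1% in exons of RefSeq CEP152. The row is therefore called the row named CEP152 below, and its 2 portions are given separately. For ASPM, WDR62, CDK5RAP2, CENPJ, STIL, MCPH1 and CIT, between 98.3% and 100% of the exon counts lay in exons of the RefSeq gene of the same name, and for CEP135 the share was 80.3%, on only 193 exon counts. Apart from CEP135, the exon table held between 30.6% (STIL) and 78.3% (MCPH1) of the gene counts of these genes.

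At the KNL1 locus the table holds an unnamed gene, ENSSSCG00000039107, at chr1:130652703-130728737 on the minus strand. Of its 8638 exon bases, 98.6% lie within RefSeq exons of KNL1 and they cover 94.8% of those exons. A second unnamed gene there, ENSSSCG00000042522, had 0 counts. It shares 5192 of the 8638 exon bases of the first (60.1%) on the same strand, and how reads in the shared bases were counted is not stated. The first is reported as the unnamed gene at the KNL1 locus and is not counted among the 9 named members.

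The sequences just upstream of the transcription starts are shown for 3 members with large changes between days and for CEP152, whose own start lies inside its row, since genes of the cell cycle often carry CCAAT boxes and cell cycle homology regions (CHR) near their starts. Each is the 150 bases before the RefSeq start, read 5′ to 3′ along the gene from the Sscrofa11.1 genome, with matches to CCAAT and to the CHR letters TTTGAA on either strand in capitals, so that a CCAAT match on the other strand reads ATTGG. ASPM lies at chr10:20039681-20039830 (minus strand), CDK5RAP2 at chr1:260648071-260648220 (minus strand), CEP152 at chr1:122875996-122876145 (plus strand) and CIT at chr14:33009678-33009827 (plus strand).
ASPM: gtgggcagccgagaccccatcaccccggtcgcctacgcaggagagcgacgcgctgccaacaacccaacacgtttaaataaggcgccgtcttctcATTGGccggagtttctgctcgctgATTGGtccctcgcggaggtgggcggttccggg
CDK5RAP2: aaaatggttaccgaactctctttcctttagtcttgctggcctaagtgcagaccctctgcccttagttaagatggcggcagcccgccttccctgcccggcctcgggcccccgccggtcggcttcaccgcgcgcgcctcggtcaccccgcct
CEP152: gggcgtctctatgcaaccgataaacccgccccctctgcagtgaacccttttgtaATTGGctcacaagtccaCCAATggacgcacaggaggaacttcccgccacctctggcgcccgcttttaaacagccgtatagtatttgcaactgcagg
CIT: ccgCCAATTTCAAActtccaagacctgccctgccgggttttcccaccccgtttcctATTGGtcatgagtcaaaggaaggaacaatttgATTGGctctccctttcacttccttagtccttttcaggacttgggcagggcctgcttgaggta

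In a window from 250 bases before to 50 bases after the RefSeq start, CCAAT on either strand was present in 6 of the 10 members (ASPM, WDR62, STIL, CENPJ, CEP152 and CIT) and in 35.4% of 19556 protein-coding promoters. The CHR letters, which are TTTGAA or else TTCGAA on either strand, were present in 3 of 10 (MCPH1, KNL1 and CIT) and in 15.6% of all. On either strand, none of TTTCCCGC, TTTCGCGC, TTTGCCGC or TTTGGCGC, letters bound by E2F factors, was found in the 10, while 3.35% of all promoters held at least 1 of them. GGGCGG on either strand was present in 5 of 10 and in 50.6% of all. In the 150 bases shown, ASPM and CIT both carry CCAAT letters and CDK5RAP2 carries neither motif. These matches are descriptions of the letters only.

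Levels were compared between genes per length of the gene model (FPKM, which is CPM divided by the deposited length in kilobases). At GD45 CDK5RAP2 was highest, with a mean of 11.0 ± 3.03 FPKM (SD, n = 6), followed by WDR62 with 4.82 ± 0.675, CIT with 3.69 ± 0.851, MCPH1 with 3.51 ± 0.436, CENPJ with 2.91 ± 0.407, CEP135 with 2.44 ± 0.563, STIL with 2.06 ± 0.247 and ASPM with 1.76 ± 0.420. The lowest CDK5RAP2 library (8.44 FPKM) lay above the highest library of every other member at that day. From WDR62 down to ASPM, each neighbouring pair overlapped between libraries. At GD90 the order had changed: CIT was highest with 9.08 ± 2.12 FPKM, MCPH1 (4.27 ± 0.548) and CDK5RAP2 (4.01 ± 0.209) overlapped behind it, and ASPM was lowest of the 8 at 0.541 ± 0.215. The row named CEP152 is left out of this order because its length includes the exons of SHC4.

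**Figure D1:**
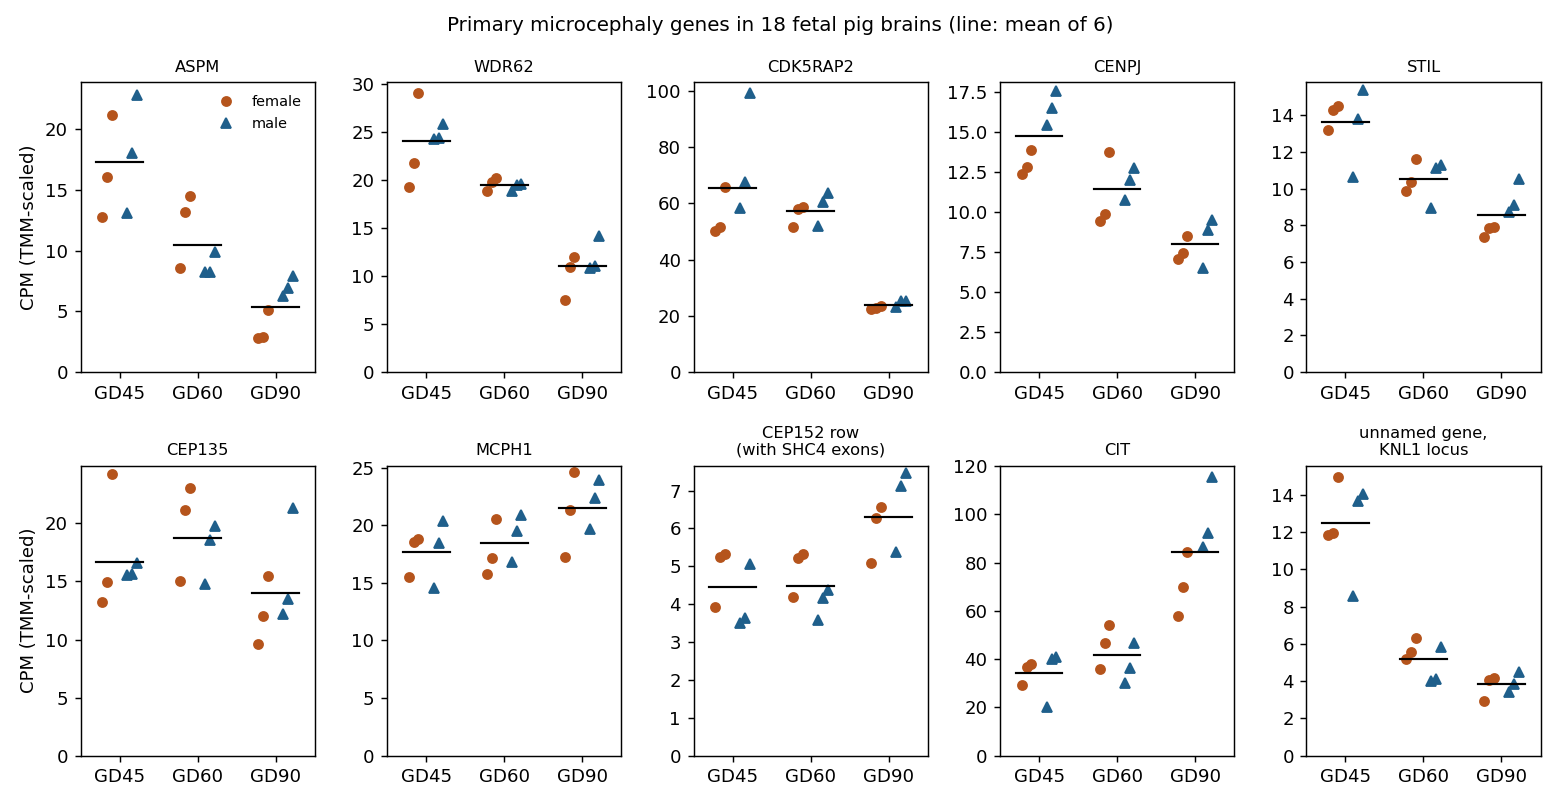
CPM (TMM-scaled) of the 9 named members and of the unnamed gene at the KNL1 locus, one panel each with its own axis from 0, by gestation day. Circles are female and triangles male fetuses, 3 each per day, and the line is the mean of 6; ASPM, WDR62, CDK5RAP2, CENPJ and STIL are lower at GD90 than at GD45, and CIT is higher.

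From GD45 to GD60, 2 of the 9 named members fell and 0 rose by the quasi-likelihood test of edgeR (Benjamini-Hochberg adjusted p under 0.05 over all 16325 genes). They were ASPM and STIL. Over all genes tested, 16.7% passed the test in this comparison and 7.37% passed it with a lower level. By unadjusted p, 4 of the 9 were under 0.05, as were 4964 of all 16325 genes. The median log2 fold change of the 9 was −0.17, against −0.01 for all genes.

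From GD60 to GD90, 5 of the 9 fell (CDK5RAP2, ASPM, WDR62, CENPJ and STIL) and 2 rose (CIT and the row named CEP152). The background was 42.4% of all genes, with 20.9% lower and 21.4% higher. ASPM, WDR62 and CDK5RAP2 were lower at GD90 in every library than in any GD60 library, and CIT was higher in every one. Over all genes, 11.2% lay wholly below and 12.9% wholly above in this sense. The 2 day comparisons share the 6 libraries of GD60, so a GD60 library that is high or low enters both.

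From GD45 to GD90, the same 7 rows passed, 5 lower and 2 higher, where 57.5% of all genes passed, 29.3% lower and 28.3% higher. In 6 of the 9 the libraries of the 2 days did not overlap (ASPM, WDR62, CDK5RAP2, STIL and CENPJ below, CIT above), and of all genes 16.4% lay wholly below and 17.5% wholly above. MCPH1 and CEP135 passed in none of the 3 comparisons under these settings.

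**Figure D2:**
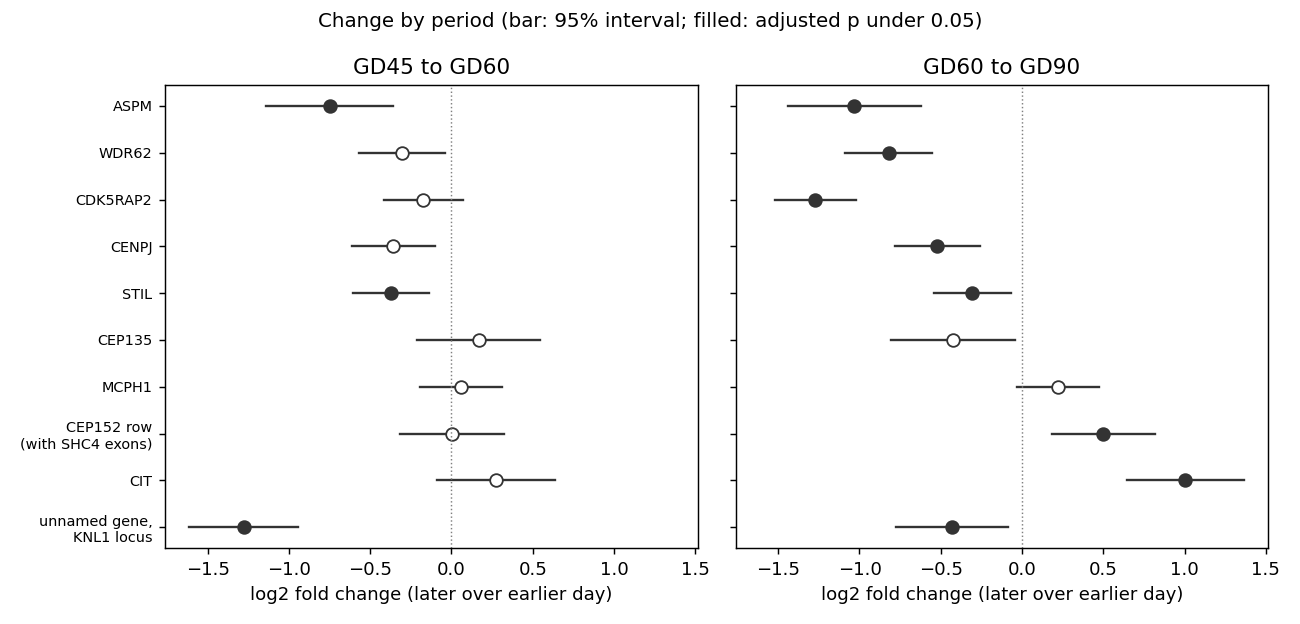
Log2 fold change of each row from GD45 to GD60 (left) and from GD60 to GD90 (right), with 95% intervals from edgeR's fit of all 18 libraries; filled points passed the adjusted test. On the left ASPM, STIL and the unnamed gene at the KNL1 locus are filled and below 0, and on the right CIT and the row named CEP152 lie above 0 with 6 filled points below.

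ASPM (ENSSSCG00000010896, chr10:19975189-20039623), which focuses microtubules at the spindle pole, showed the steepest fall among the named members over the whole span. At GD45 its lowest, median and highest libraries were 12.8, 17.0 and 22.9 CPM. At GD60 they were 8.25, 9.25 and 14.6 CPM, and at GD90 2.82, 5.69 and 7.93 CPM, on 44 to 135 counts. The GD45 and GD60 libraries overlapped, and those of GD90 lay below both. The log2 fold change was −0.75 (SE 0.19, adjusted p = 0.0101) from GD45 to GD60, −1.03 (SE 0.19, adjusted p = 0.000422) from GD60 to GD90 and −1.78 (SE 0.19, adjusted p = 7.5e-07) over both.

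WDR62 (ENSSSCG00000002923, chr6:45419041-45474050), a scaffold at the spindle pole, ranged from 19.3 to 29.1 CPM at GD45 (median 24.3). Its GD60 libraries lay at 18.9 to 20.3 CPM (median 19.6) and its GD90 libraries at 7.49 to 14.2 CPM (median 11.0). The GD60 libraries were close together, with an SD of 0.550 CPM, and all 6 lay above all 6 of GD90. The first step, a log2 fold change of −0.31 (SE 0.12), did not pass (adjusted p = 0.106), though it did with the gene length trend removed (adjusted p = 0.0468) and in the exon table summed per gene (−0.46, adjusted p = 0.0408). The second, −0.82 (SE 0.13), passed (adjusted p = 7.2e-05). The gene shares 219 of its 5000 exon bases with OVOL3 on the same strand.

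CDK5RAP2 (ENSSSCG00000028117, chr1:260467159-260635443) passed from GD60 to GD90 but not from GD45 to GD60. Its GD45 libraries ran from 50.1 to 99.3 CPM (median 62.2), its GD60 libraries from 51.6 to 63.9 (median 58.4) and its GD90 libraries from 22.4 to 25.4 (median 23.5). The value of 99.3 CPM was male GD45 replicate 17, the library that stood apart, and the next highest was 67.5. Between GD45 and GD60 the log2 fold change was −0.17 (SE 0.12, adjusted p = 0.339, 95% interval −0.42 to 0.07). Within the sexes it was −0.35 in males (SE 0.16, adjusted p = 0.266) and 0.01 in females (SE 0.16, adjusted p = 0.99). Between GD60 and GD90 the log2 fold change over both sexes was −1.27 (SE 0.12, adjusted p = 3.3e-07), the largest fall of the 9 in that period.

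Among the genes of centriole assembly, CENPJ and STIL fell more gradually. CENPJ (ENSSSCG00000029393, chr11:289653-357155), which sets centriole length, had medians of 14.7, 11.4 and 7.96 CPM at GD45, GD60 and GD90. The ranges of neighbouring days overlapped (12.4 to 17.6, 9.46 to 13.7 and 6.52 to 9.52 CPM), and those of GD45 and GD90 did not. Its log2 fold change was −0.36 (SE 0.12, adjusted p = 0.0532) in the first period and −0.52 (SE 0.12, adjusted p = 0.00277) in the second. The first passed by DESeq2 (adjusted p = 0.0206), by the likelihood ratio test (adjusted p = 0.0457), with the gene length trend removed (adjusted p = 0.0314) and without female GD60 replicate 15 (adjusted p = 0.0119), male GD90 replicate 1 or male GD45 replicate 17.

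STIL (ENSSSCG00000003888, chr6:164197558-164266919), which acts with PLK4 at the start of centriole duplication, had medians of 14.03, 10.7 and 8.31 CPM. Its ranges were 10.6 to 15.4, 8.97 to 11.6 and 7.34 to 10.5 CPM, so neighbouring days overlapped. Its log2 fold changes of −0.37 (SE 0.11, adjusted p = 0.0289) and −0.31 (SE 0.11, adjusted p = 0.0372) passed narrowly. The first was lost without any 1 of 6 single libraries (adjusted p up to 0.0795) and the second without any 1 of 8 (adjusted p up to 0.0866). Neither passed with littermates summed (adjusted p = 0.0783 and 0.0865). Both were also lost without TMM scaling (adjusted p = 0.0679 and 0.0536) and without a filter on low counts (adjusted p = 0.0816 and 0.118). In the exon table summed per gene, which holds 30.6% of its counts, the first was −0.37 (adjusted p = 0.221) and the second −0.06 (adjusted p = 0.845). Over the whole span the log2 fold change was −0.68 (SE 0.11, adjusted p = 7e-05), though in the exon table it did not pass (−0.43, adjusted p = 0.0662).

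CEP135 (ENSSSCG00000022283, chr8:55251005-55323365), a protein of the centriole's core, did not pass in any day comparison under the main settings. Its medians were 15.6, 19.2 and 12.8 CPM, and its ranges of 13.2 to 24.2, 14.8 to 23.04 and 9.65 to 21.3 CPM overlapped at all days. The log2 fold change from GD60 to GD90 was −0.43 (SE 0.18, adjusted p = 0.0676, 95% interval −0.81 to −0.04). It passed when any 1 of 4 libraries was left out, at most −0.57 (adjusted p = 0.018) without male GD90 replicate 10, the highest of its day, and also without female GD60 replicate 3, female GD90 replicate 9 or female GD45 replicate 18. With the gene length trend removed CEP135 passed from GD60 to GD90 (−0.52, adjusted p = 0.024) and over both periods (−0.43, adjusted p = 0.0464). The fall from GD60 to GD90 also passed with only the libraries of those days (adjusted p = 0.0482). It passed as well without male GD45 replicate 17 and female GD45 replicate 18 together (adjusted p = 0.0293).

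The row named CEP152 had medians of 4.49, 4.28 and 6.42 CPM at GD45, GD60 and GD90, within ranges of 3.50 to 5.33, 3.59 to 5.33 and 5.09 to 7.45 CPM. It did not pass from GD45 to GD60 (log2 fold change 0.00, SE 0.15, adjusted p = 0.99) and rose from GD60 to GD90 (0.50, SE 0.15, adjusted p = 0.0126). The 2 portions of the row were separated in the exon table. Exons of RefSeq SHC4 had medians of 2.75 CPM in the GD60 libraries (2.53 to 4.36) and 5.78 CPM in the GD90 libraries (4.93 to 8.14), with no overlap. Exons of RefSeq CEP152, a receptor for PLK4 at the centriole, had medians of 1.39 CPM (0.771 to 2.25) and 1.004 CPM (0 to 1.76), which overlapped, on at most 18 counts per library at either day. Summed separately and fitted with all other genes of that table, the SHC4 exons rose (log2 fold change 0.98, SE 0.26, adjusted p = 0.00863). The CEP152 exons had a log2 fold change of −0.46 (SE 0.51, adjusted p = 0.529), and a change of CEP152 itself was not detectable at this depth. The rise of the row was thus not seen in the exons of CEP152.

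**Figure D3:**
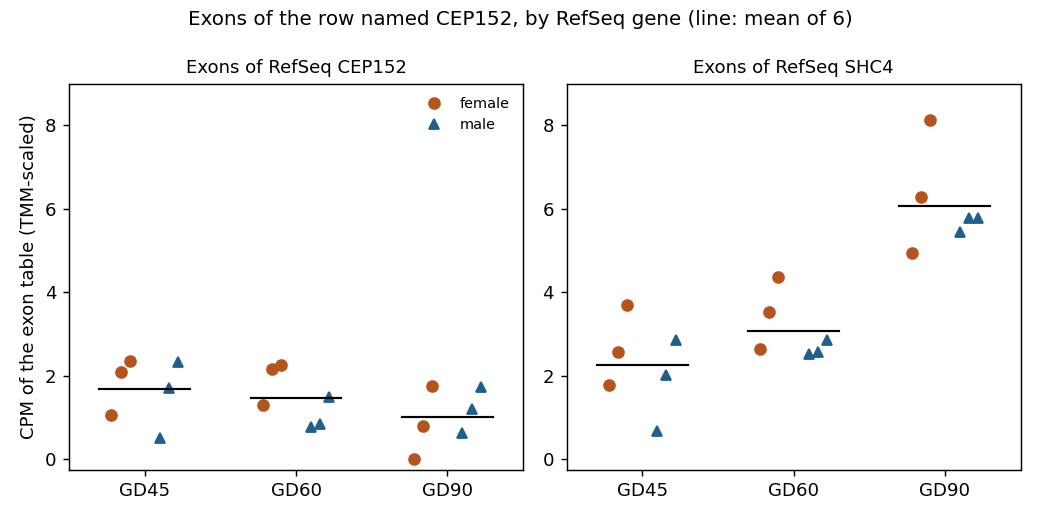
CPM of the exon table (TMM-scaled) for the exons of the row named CEP152, split into those of RefSeq CEP152 (left) and RefSeq SHC4 (right), by gestation day on one common scale. Circles are female and triangles male fetuses, and the line is the mean of 6; the SHC4 exons at GD90 lie between 4.93 and 8.14 CPM, above every GD60 library, while the CEP152 exons lie between 0 and 1.76 CPM.

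MCPH1 (ENSSSCG00000015754, chr15:37455526-37673663) had medians of 18.5, 18.3 and 21.8 CPM, with ranges of 14.5 to 20.4, 15.7 to 20.9 and 17.3 to 24.7 CPM that overlapped at all days. Its log2 fold change was 0.06 (SE 0.12, adjusted p = 0.788) in the first period and 0.22 (SE 0.12, adjusted p = 0.145) in the second. Over both it was 0.28 (SE 0.12), which missed the threshold (adjusted p = 0.0535, 95% interval 0.03 to 0.53). It passed by DESeq2 (adjusted p = 0.0398), with a filter of more than 1 CPM in 3 libraries (adjusted p = 0.0475) and without female GD90 replicate 2 (adjusted p = 0.0278), male GD45 replicate 11 or male GD90 replicate 1.

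CIT (ENSSSCG00000009839, chr14:33009867-33196286) went the other way from the members that fell. At GD45 its libraries ran from 20.4 to 40.8 CPM (median 37.4), the lowest being male GD45 replicate 17. The GD60 libraries ran from 30.1 to 54.1 CPM (median 41.4) and the GD90 libraries from 58.0 to 115 CPM (median 85.3), so every GD90 library was above every earlier one. The log2 fold change was 0.28 (SE 0.17, adjusted p = 0.301) from GD45 to GD60 and 1.01 (SE 0.17, adjusted p = 0.000171) from GD60 to GD90, a fold of 2.01. CIT shares 218 of its 9290 exon bases with PRKAB1 on the opposite strand, and whether the counting used strand is not stated.

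The gene CIT is known to give 2 kinds of product, the full-length citron kinase of dividing cells and a shorter citron without the kinase domain that is found at synapses of neurons. RefSeq lists 15 CIT models for the pig, of which 2 start far inside the gene, at base 33075367 of chromosome 14 or beyond. The 6 exons with counts before that internal start held 74 counts over 18 libraries on 800 bases. This is a mean of 0.218, 0.413 and 1.16 CPM per kilobase at GD45, GD60 and GD90. The 38 exons with counts after that start, without the last, held 4294 counts on 5030 bases, at 3.18, 4.26 and 9.68 CPM per kilobase. The last exon held 6948 counts on 2290 bases, at 17.5, 17.4 and 28.8. Exons without any counts were left out of these bases. Over exons with counts, the level was lowest before the internal start and highest in the last exon at every day. All 3 stretches were highest at GD90. Since the level rose along the gene toward its 3′ end, the order of the stretches does not separate the 2 products. These exon counts leave out reads that the exon table does not hold, and no test was made between the stretches.

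The unnamed gene at the KNL1 locus fell in both periods. Its medians were 12.8, 5.40 and 3.97 CPM, with ranges of 8.55 to 15.0, 4.01 to 6.34 and 2.91 to 4.50 CPM at the successive days. All GD60 libraries were below all GD45 libraries, as were those of 3.84% of all genes. Its fall in the first period, a log2 fold change of −1.28 (SE 0.16, adjusted p = 3.9e-05), was larger than that of any named member, and its fall in the second was −0.43 (SE 0.16, adjusted p = 0.0429). The second was lost without any 1 of 8 single libraries, with −0.33 (adjusted p = 0.121) without male GD60 replicate 4.

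Exons were examined one by one where they had enough counts. Of the exons of the named members, 69 could be tested for a change in use relative to the rest of their gene, over 7 genes, and none in CEP135 or the row named CEP152. By edgeR's test for exon usage, 0 of the 69 passed from GD45 to GD60 and 0 from GD60 to GD90, with 2 in either period at an unadjusted p under 0.05. Among all 76800 exons tested, 0.013% and 0.1% passed the adjusted test, and the share at an unadjusted p under 0.05 was not counted. From GD60 to GD90, all 23 tested exons of CIT had log2 fold changes above 0, between 0.62 and 2.16. All 14 of CDK5RAP2, all 10 of WDR62 and all 7 of ASPM had values below 0. The exon table held only 30.6% of the gene counts of STIL, where 3 of the 4 tested exons were below 0, and 3.89% of those of CEP135.

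**Figure D4:**
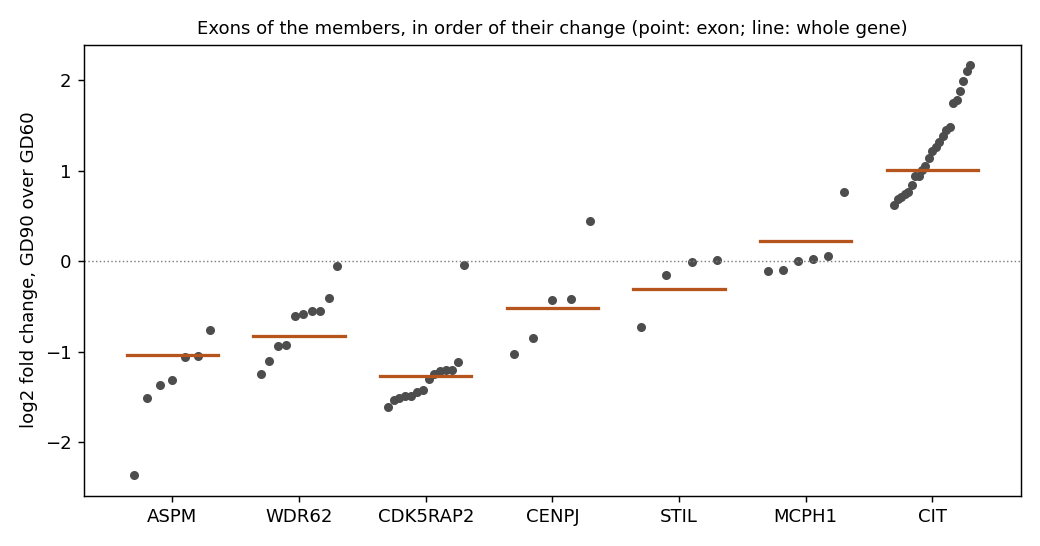
Log2 fold change from GD60 to GD90 of each tested exon (points, ordered within a gene by their value) of 7 members, with the value of the whole gene as a line. Every point of ASPM, WDR62 and CDK5RAP2 lies below 0 and every point of CIT above 0, between 0.62 and 2.16, while exons of STIL, MCPH1 and CENPJ lie on both sides.

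The sexes were compared at each day. At GD45, GD60 and GD90, 0 of the 9 named members passed between males and females by edgeR's quasi-likelihood test, and 0 passed by DESeq2, where 0.0919%, 0.098% and 0.098% of all genes passed in the first. At an unadjusted p under 0.05 there was 1 member at GD45 (CDK5RAP2), 0 at GD60 and 1 at GD90 (ASPM). Of all 16325 genes, 423, 784 and 2213 were under that cut at GD45, GD60 and GD90. At GD90 all 9 had fitted values above 0 (males over females), with a median log2 difference of 0.24 against 0.01 for all genes, and ASPM, STIL and CIT had every male above every female. Of all genes, 17.8% had every male above every female at that day. The values of the 9 members rest on the same libraries, and the share of all genes with a value above 0 was not counted.

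ASPM showed the largest such difference. Its females at GD90 stood at 2.82, 2.91 and 5.10 CPM and its males at 6.28, 6.96 and 7.93 CPM. In each of the 3 presumed litters the male was above the female. The log2 difference was 0.97 (SE 0.28, unadjusted p = 0.00322), which did not pass over all genes (adjusted p = 0.35), and with the litter as a block it was 1.003 (adjusted p = 0.335). The highest of these males, replicate 1, is the library with the high granule precursor markers, and without it the difference was 0.87 (adjusted p = 0.419). Its littermate, replicate 2, is the lowest female, and without that one the difference was 0.80 (adjusted p = 0.807).

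ASPM was also fitted within each sex. In females its log2 fold change was −0.46 (SE 0.26, adjusted p = 0.324) from GD45 to GD60 and −1.74 (SE 0.28, adjusted p = 0.000231) from GD60 to GD90. In males the same periods gave −1.03 (SE 0.26, adjusted p = 0.0285) and −0.32 (SE 0.27, adjusted p = 0.374), and the second became −0.61 (adjusted p = 0.0426) with the gene length trend removed. The difference of the second period between the sexes, 1.42 on the log2 scale (SE 0.39), did not pass (adjusted p = 0.178). It passed by DESeq2 (adjusted p = 0.0354), in a fit of the GD60 and GD90 libraries alone (adjusted p = 0.0425) and without male GD45 replicate 17 (adjusted p = 0.0242). Over all settings tried, the difference stayed above 1.01 on the log2 scale.

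Counted by sex, few members passed in the first period. From GD45 to GD60, 0 of the 9 passed in females (7.22% of all genes), and 0 by DESeq2. At an unadjusted p under 0.05 there was 1 in females, where 3500 of all 16325 genes were under that cut. In males 1 passed, ASPM (5.61% of all genes), and 0 passed when any 1 of 5 male libraries was left out. From GD60 to GD90, 5 fell in females (ASPM, WDR62, CDK5RAP2, STIL and CENPJ, where 27.1% of all genes passed). In males 3 fell and 2 rose (WDR62, CDK5RAP2 and CENPJ lower, CIT and the row named CEP152 higher, where 34.5% passed). Without male GD90 replicate 1 the 5 became 3, and without female GD90 replicate 2 the 5 in females became 3. CIT stood at 58.0, 69.9 and 84.2 CPM in the GD90 females and at 86.3, 92.5 and 115 CPM in the males. It had a log2 fold change from GD60 of 0.63 (SE 0.24, adjusted p = 0.0607) in females and 1.38 (SE 0.24, adjusted p = 0.000483) in males, and the difference did not pass (0.74, SE 0.34, adjusted p = 0.244). The female value passed under 5 other settings, among them DESeq2 (adjusted p = 0.0392), only the libraries of those days (adjusted p = 0.0219) and the gene length trend removed (0.75, adjusted p = 0.00383). It also passed without male GD45 replicate 17 (adjusted p = 0.0124), and without that fetus and female GD45 replicate 18 together (adjusted p = 0.0142). No member passed the test of a sex difference in either period, where 0% of all genes passed. In the second period ASPM and CIT had an unadjusted p under 0.05, as did 3232 of all 16325 genes.

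The members were also set beside genes of mitosis as such. Of 12 reference genes, among them TOP2A, CDK1, CCNB1 and UBE2C, 10 were tested, and all 10 fell in both periods. The median of their mean log2 CPM over libraries was 5.34 at GD45, 4.15 at GD60 and 3.18 at GD90. Relative to that mean, ASPM had overlapping ranges at all days, with median log2 differences of −1.15, −0.99 and −0.62. CDK5RAP2 stood at 0.61, 1.68 and 1.37, so it was higher relative to the mitotic genes at GD60 than at GD45. MCPH1 went from −1.11 through 0.05 to 1.33 and CIT from −0.13 through 1.197 to 3.10, with no overlap between days in either. The days did not overlap for STIL (medians −1.53, −0.81 and −0.11) or for the row named CEP152 (−3.18, −1.98 and −0.55) either. These ratios are descriptions and were not tested.

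**Figure D5:**
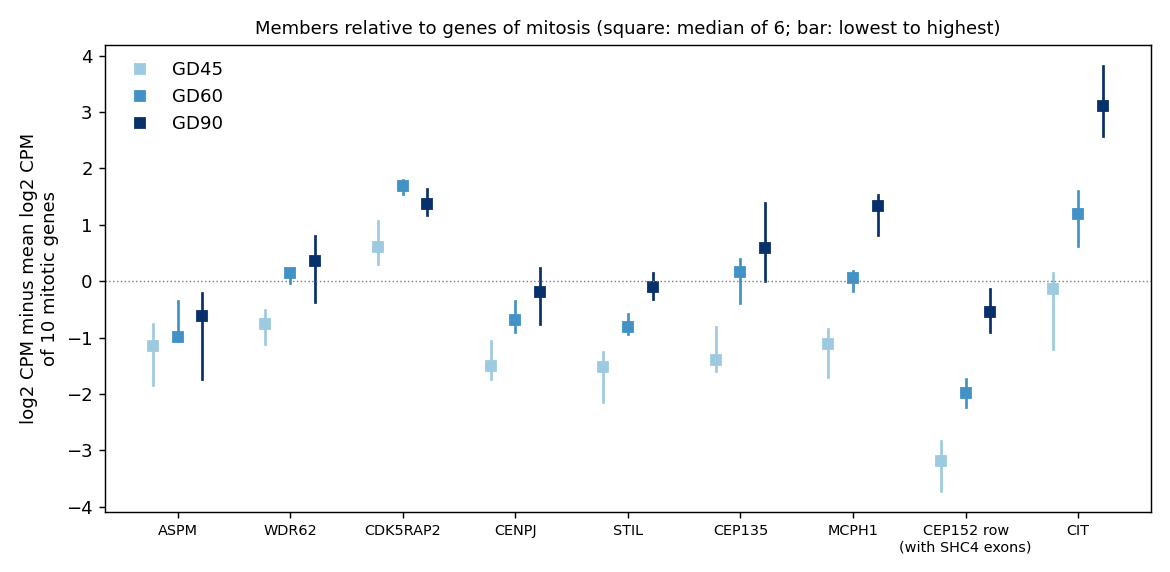
Log2 CPM of each named member minus the mean log2 CPM of 10 genes of mitosis in the same library, by gestation day, with the median of 6 libraries as a square and the lowest to the highest as a bar. ASPM stays between −1.84 and −0.21 at all days, while CIT climbs from a median of −0.13 at GD45 to 3.10 at GD90.

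Across the 18 libraries the members did not share a single pattern. Pearson's r of log2 CPM was highest between WDR62 and CDK5RAP2 (0.91) and between ASPM and STIL (0.90), and lowest between CDK5RAP2 and CIT (−0.89). Against the mean of the other members, r was negative for MCPH1 (−0.32), the row named CEP152 (−0.43) and CIT (−0.52). All these values rest on the same 18 libraries, whose largest difference is gestation day. Genes nearest to the mean of the members by r were CDK12, CDON, EML4, EPB41L5, ZNF638, EYA3, LRIG3, MED12, HAUS6 and TNPO3, at 0.91 down to 0.88, and ranked by Spearman's rho only EML4 and ZNF638 stayed among the 10. Since that mean joins genes that go different ways, 3 members were also taken singly, a choice made after their values were seen. Nearest to ASPM were TIMELESS and AGO1 (both 0.97), nearest to CDK5RAP2 were RBM6 and NSD2 (both 0.99), and nearest to CIT were SYNJ1 and ADAM22 (both 0.98).

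Beyond the 10 members, 20 other loci of primary microcephaly were examined. Of these, 18 were tested, and 9 fell and 1 rose from GD45 to GD60, while 10 fell and 0 rose from GD60 to GD90. Of all genes, 7.37% fell in the first period and 20.9% in the second. Their median log2 fold change in the second period was −0.59, against −0.01 over all genes. The largest falls were those of LMNB1, which encodes lamin B1 of the nuclear envelope (log2 fold change −1.31, adjusted p = 2.3e-08), BUB1, a kinase of the spindle checkpoint (−1.16, adjusted p = 3.7e-05), and NCAPD2, a subunit of condensin (−1.10, adjusted p = 7.8e-08). LMNB1 went from a mean of 213 CPM at GD45 to 45.8 at GD90.

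Partners of the members were counted by where they act. From GD60 to GD90, 7 of 14 genes of centriole assembly fell and 1 rose, 4 of 11 of the pericentriolar material fell and 0 rose, and 4 of 10 of the spindle pole and its orientation fell and 3 rose. Over the same period 11 of 13 kinetochore and checkpoint genes, 8 of 13 cytokinesis genes and 7 of 8 condensin genes fell, and none rose. Of all genes, 20.9% fell and 21.4% rose over that period. Some genes stand in more than 1 list. The largest falls were CEP97 (−0.54), which restrains cilium formation, PLK1 (−0.82), a mitotic kinase, TPX2 (−0.999), which nucleates spindle microtubules, ZWINT (−1.21) of the kinetochore and CDCA8 (−1.14) of the chromosomal passenger complex.

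The 1 centriole gene that rose was PLK4, the kinase that starts centriole duplication (log2 fold change 0.73, adjusted p = 3.5e-05). As with the row named CEP152, its row spans a neighbour. Of its exon counts, 85.1% lay in exons of RefSeq HSPA4L, a heat shock protein gene, and 14.3% in exons of RefSeq PLK4. The HSPA4L exons had a summed mean of 38.2 CPM at GD60 and 59.8 at GD90, and the PLK4 exons 7.05 and 4.76. The largest rise in the spindle pole list was that of NDEL1, a regulator of dynein (0.71, adjusted p = 0.000162). Of its exon counts, 43.8% lay in exons of RefSeq NDEL1, with a summed mean of 20.6 CPM at GD60 and 39.8 at GD90. Another 56.2% lay in exons assigned to no RefSeq gene, at 30.9 and 28.7 CPM. In the exon table summed per gene the rise of NDEL1 did not pass (0.48, adjusted p = 0.0567).

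Marker genes of other cell types moved over the same days, and their part in the results was not tested. Of 9 tested markers of radial glia, the progenitors that line the ventricle, 4 fell and 2 rose from GD60 to GD90, and their summed level was 2383 to 3706 CPM at GD45, 2085 to 2413 at GD60 and 2054 to 2323 at GD90. All 3 tested markers of intermediate progenitors fell, whose sum ranged over 79.1 to 136 CPM in the GD45 libraries, 21.1 to 43.0 in those of GD60 and 1.12 to 7.34 in those of GD90, where EOMES had a mean of 1.78 CPM and NEUROG1 of 0.0529. All 4 markers of oligodendrocytes rose, their sum going from 37.5 to 69.2 CPM at GD60 to 1708 to 2942 at GD90. Of 7 tested neuronal markers, 4 rose and 1 fell in that period. All 4 markers of oligodendrocyte precursors and all 5 of microglia rose, as did 1 of 4 of endothelium, while 2 of 5 erythroid markers fell and 2 of 4 of meningeal fibroblasts fell with 1 higher. The 5 cerebellar granule precursor markers had adjusted p from 0.359 to 0.633 from GD60 to GD90, with sums of 55.7 to 136 CPM at GD60 and 47.8 to 200.2 CPM at GD90. Male GD90 replicate 1, the highest of these, also had the highest intermediate progenitor sum of its day (7.34 CPM, against 1.12 to 2.04 in the other 5) and the highest ASPM and STIL. Without it the log2 fold change from GD60 to GD90 was −1.08 for ASPM (adjusted p = 0.000877) and −0.35 for STIL (adjusted p = 0.0319).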

How the data were processed

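The authors extracted total RNA from whole fetal brains, enriched polyadenylated RNA and sequenced paired-end libraries. Per the study's methods and the labels, reads were trimmed with Trimmomatic, aligned to Sscrofa11.1 with HISAT2 and counted on the Ensembl annotation with featureCounts, and the authors deposited raw counts per gene and per exon, used here; the options for strand and for shared reads are not given in the sources used here. The transcript table was not used. The 22 count columns were mapped to 18 libraries, and the 2 runs of 4 libraries were summed.

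Genes kept by filterByExpr were scaled by TMM and fitted with edgeR 4.0.16 (quasi-likelihood, 6 groups of sex and day, R 4.3.3), and day contrasts were averaged over the sexes. CPM is TMM-scaled, FPKM is CPM per kilobase of deposited gene length, and log2 CPM used a prior count of 2. DESeq2 1.42.0 was an alternative. Exon usage was tested with diffSpliceDGE. Each exon was assigned to a RefSeq gene where at least 50% of its bases lay in that gene's exons. The fits were tested on simulated data, in which libraries were drawn independently. That simulation held no likeness between littermates, so it does not test the fits for that part of the design.

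The members and gene lists were chosen with earlier results of these data known. The 10 members are named, and of each list the gene with the largest called fall and rise from GD60 to GD90 (3 each for the other microcephaly loci). Nearest genes were the top 10 by r among named genes of at least 1 CPM on average. Brains of littermates are not independent, and p-values measure the spread between these fetuses only. Other settings are given in the closing section.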

Additional observations from a re-analysis of the deposited data

Results flagged for a closer look

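Of 30 sets of 6 libraries (9 named members and the unnamed gene at the KNL1 locus, at 3 days), 2 held a library far from the other 5 by Dixon's criterion, which flags about 1 in 20 by chance. CDK5RAP2 stood at 99.3 CPM in male GD45 replicate 17, with the next library at 67.5 CPM. CEP135 stood at 24.2 CPM in female GD45 replicate 18, with the next at 16.6 CPM. Both fetuses are from the GD45 litter of 8, whose labelled brain weights were the lowest of that day. Without the 2 fetuses of that litter the log2 fold change of CDK5RAP2 from GD45 to GD60 was 0.02 (adjusted p = 0.908).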

How the results depend on the processing

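From GD45 to GD60 the count of members that passed was 2, became 1 without TMM scaling, without a filter on low counts, with littermates summed and with only the libraries of the days compared, and became 4 with the gene length trend removed. Leaving out single libraries gave 1 to 3 (1 without female GD60 replicate 5, male GD60 replicate 6, male GD45 replicate 11 or female GD45 replicates 13 or 18). From GD60 to GD90 the count ran from 6 to 8, and over both periods from 7 to 8, when single libraries were left out. In females from GD45 to GD60 it was 1 with the length trend removed. In males it was 0 without TMM scaling, with only those days and in the exon table with or without the SHC4 exons, and 0 to 1 with a library left out (0 without male GD60 replicates 4, 6 or 16 or male GD45 replicates 11 or 14). From GD60 to GD90 it was 3 in females with no filter, and 3 to 7 with a library left out. In males it was 3 in the exon table without the SHC4 exons, and 3 to 5 with a library left out. For the sex difference of the second period it was 1 with DESeq2, with only those days and without the GD45 litter of 8, and 0 to 1 with a library left out (1 without male GD45 replicate 17). The share of all genes that passed under these other settings was not counted.

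These values changed sign, none of them past the threshold. Without the GD45 litter of 8, GD60 against GD45 gave 0.0187 for CDK5RAP2, −0.0476 for MCPH1, −0.015 for the row named CEP152 and −0.0938 for CIT in males, and the sex difference of CIT at GD45 was 0.247. For the row named CEP152 that comparison gave −0.00491 with DESeq2, −0.00902 with no filter, −0.102 with the length trend removed, −0.00895 with littermates summed and −0.00796 with only those days. Limited to RefSeq CEP152 exons, an alternative chosen after seeing the data, the row gave −0.26, −0.46 and −0.72. CEP135 over both periods gave 0.21 in the exon table. With single libraries left out, the ranges were −0.0172 to 0.11 for MCPH1 and −0.0623 to 0.10 for the row named CEP152 (GD60 against GD45), −0.11 to 0.32 for CIT in males, and −0.10 to 0.32 for ASPM and −0.20 to 0.22 for CIT between the sexes at GD45. The causes were not tested, apart from fewer samples or other exons by construction.

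The replicate numbers pair no fetuses, since each has its own, so the presumed littermates were paired instead. In this paired fit, with the litter as a block, 0 members passed between the sexes at each day or in either sex difference between periods. Counts of ASPM were 44 to 135 at GD90 and those of the CEP152 exons 0 to 20, which limits precision. Whole brains mix regions, and littermates are not independent.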
